A study of Mus musculus with 24 samples.

Results

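The genes described here are 7 genes of antigen presentation by major histocompatibility complex (MHC) class II: H2-Ab1, H2-Aa, H2-Eb1, Cd74, Ciita, H2-DMa and H2-DMb1. They were found by symbol among the 37310 genes of the expression tables, and all 7 were matched. They were chosen by the measured level of H2-Ab1, which stood out as higher with epigallocatechin gallate (EGCG), a green tea catechin, than without it in white fat cells on day 4. That comparison is therefore given as a description, without a test.

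The cells were stromal vascular cells, the mixed fraction of fat that holds adipocyte precursors, from the inguinal white (WAT) and interscapular brown (BAT) adipose tissue of 6-week-old C57BL/6 mice. All cells were cultured in induction medium until day 4 and in differentiation medium until day 8, with EGCG or with its solvent DMSO (control). The labels give no dose of EGCG. RNA sequencing covered 8 groups of 3 libraries each: WAT or BAT, day 4 or day 8, EGCG or control. The groups share strain, age and culture, and the labels do not say whether the 3 libraries of a group came from separate mice or cultures, so the p-values measure only the spread between these libraries.

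MHC class II molecules display peptides from endocytosed proteins to CD4 T cells. They are pairs of an α and a β chain. H2-Aa and H2-Ab1 encode the α and the β chain of the I-A molecule, and H2-Eb1 encodes the β chain of I-E, whose α chain gene is defective in C57BL/6 mice. Cd74 encodes the invariant chain, which holds newly made class II molecules and guides them to endosomes. H2-DMa and H2-DMb1 encode the α and the β chain of H2-M, which exchanges the invariant chain fragment for peptide. Ciita encodes the class II transactivator, the regulator that dendritic cells, B cells and macrophages use to express these genes together. It acts through the X and Y boxes of their promoters, which bind RFX and NF-Y factors.

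These boxes are shown because they are the sequence feature that class II genes share. The RefSeq promoter table (build GRCm38.p6, 250 bases before to 50 bases after each start) held promoters of 4 of the 7 genes: H2-Aa, H2-Eb1, H2-DMa and H2-DMb1. H2-Ab1, Cd74 and Ciita are named only. An X motif (CTNGNAAC) and a Y motif (GATTGG) were searched on both strands. The motifs were written after these promoters had been read, and they do not overlap in the stretches below. The capitals mark first X, then Y.
H2-Aa, chr17:34287857-34287917, minus strand: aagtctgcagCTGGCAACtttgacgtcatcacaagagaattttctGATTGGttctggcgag
H2-Eb1, chr17:34305763-34305822, plus strand: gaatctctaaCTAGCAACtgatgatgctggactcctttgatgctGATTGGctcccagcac
H2-DMb1, chr17:34153084-34153144, plus strand: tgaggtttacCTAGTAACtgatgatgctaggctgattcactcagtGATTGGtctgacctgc
The starts of X and Y lay 35 bases apart in H2-Aa and H2-DMb1 and 34 in H2-Eb1. Of 32851 promoters, 13.2% held X, 16.1% held Y, and 0.1% (33 promoters of 31 genes) held X and then Y on 1 strand with starts 20 to 40 bases apart. Besides these 3 genes, H2-Ob was the only gene with an H2 symbol among them. Neither of the H2-DMa promoters in the table held the pair. A match is a description of the sequence, and no match says only that these letters are not in the window.

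Depth on genes ran from 39452696 to 52893848 reads for replicates 1 and 2, and from 16392420 to 41675643 for replicate 3, which was deposited in its own table. Values are FPKM, reads scaled to gene length and to the reads on genes in the library. The third library of WAT day 8 EGCG stood apart: 61.0% of its reads lay on 5 genes, so its deposited FPKM are low for nearly all genes, and its values for the members are also given after median-ratio scaling. The stromal marker Pdgfra (38.1 to 186 FPKM) and the adipocyte marker Fabp4 (45.1 to 7602 FPKM) were measured in every library. The summed FPKM of 8 adipocyte markers was 5654 to 6264 in WAT day 8 control and 650 to 712 in WAT day 8 EGCG replicates 1 and 2 (233 in the third as deposited and 563 after scaling). It was 9200 to 10030 in BAT day 8 control and 464 to 472 in BAT day 8 EGCG. Tests used limma on log2(FPKM + 1) of replicates 1 and 2, with p-values adjusted over the 14095 genes that reached 1 FPKM in at least 2 of 16 libraries. Replicate 3 was used for direction only.

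The 7 genes were not expressed as 1 set. H2-Ab1 was the most variable member, with 0.212 to 22.4 FPKM, while its partner chain H2-Aa was at or near 0 everywhere. H2-Ab1 held 6849 reads over the 24 libraries, and H2-Aa held 8 (exact 95% Poisson interval 3.45 to 15.8, for counting error only). H2-Aa had 0 reads in 20 libraries and never more than 4. A count of 3 reads corresponds to 0.0501 to 0.162 FPKM for H2-Aa, and 23 of the 24 libraries held 3 reads or fewer. Cd74 held 167 reads and Ciita 548. H2-Eb1 held 633, H2-DMb1 1223 and H2-DMa 4605.

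The annotations of H2-Ab1 and H2-Aa overlap. In mouse build NCBIM37, H2-Ab1 (ENSMUSG00000073421.4) lies on chromosome 17 from 34400154 to 34406363 on the plus strand, and H2-Aa (ENSMUSG00000036594.7) from 34406276 to 34424772 on the minus strand. The genes share 88 bases at their 3′ ends, but their exons share only 17 (34406276 to 34406292) of the 1644 exon bases of H2-Ab1. Whether counting used the strand is not given in the sources used here. The overlap is thus short beside the transcript, and the reads of the few bases in common cannot be told apart by gene without strand. Of 1162 stretches of 50 bases in the longest coding transcript of H2-Ab1, none occurred in a coding transcript of another gene, and its longest run in H2-Eb1 was 37 bases. H2-DMb1 shared 365 of 1348 such stretches with its neighbour H2-DMb2, so its values are less certain. H2-DMb2 itself held 6 reads over all libraries.

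**Figure D1:**
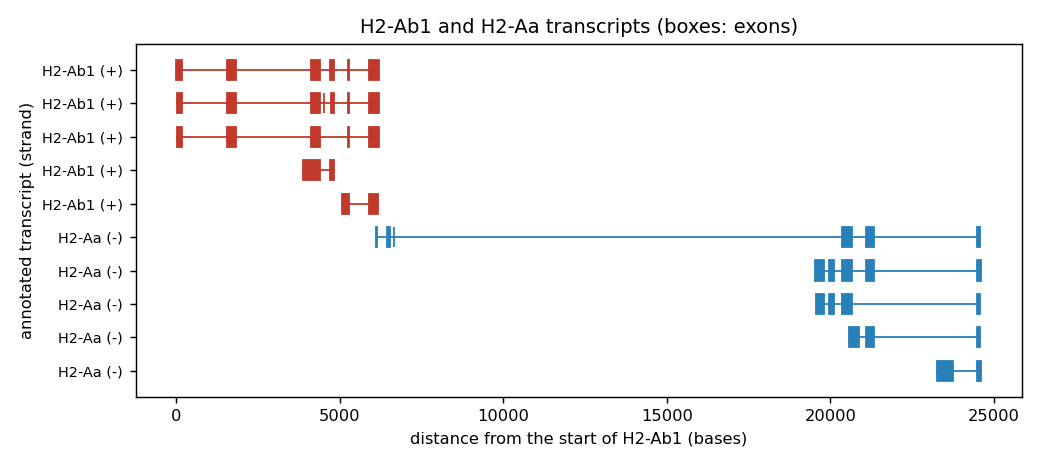
Annotated transcripts of H2-Ab1 (red, plus strand) and H2-Aa (blue, minus strand), by distance in bases from the start of H2-Ab1, with exons as boxes. A single H2-Aa transcript reaches back to the 3′ end of H2-Ab1, where the exons share 17 bases.

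H2-Ab1, the β chain of I-A, was low in both day 4 controls. In WAT day 4 control the libraries of replicates 1, 2 and 3 held 0.290, 0.212 and 0.403 FPKM, from 18, 11 and 8 reads. In WAT day 4 EGCG they held 20.9, 15.0 and 22.4 FPKM, from 1114, 847 and 637 reads. Every EGCG library was far above every control library. The mean of replicates 1 and 2 was 17.9 ± 4.14 (SD, n = 2) with EGCG and 0.251 ± 0.0550 without, a ratio of 71.5, and the ratio within replicate 3 was 55.7. This comparison chose the gene and was not tested.

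In BAT day 4 control, H2-Ab1 stood at 0.390, 0.826 and 0.737 FPKM, and in BAT day 4 EGCG at 3.50, 2.98 and 4.10 FPKM. The groups did not overlap, and the ratio of means was 5.33. The log2 change was 1.41 (SE 0.287, limma adjusted p = 0.00161), and 48.5% of all tested genes were called in this comparison. The rise passed the test under every alternative tried.

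In WAT day 8 control, H2-Ab1 stood at 7.92, 3.09 and 4.63 FPKM. In WAT day 8 EGCG it stood at 11.8, 10.96 and 5.01 FPKM, and the last value, of the library that stood apart, was 12.1 after median-ratio scaling, beside 5.06 for the control of the same table. As deposited, the groups overlapped through that library. The log2 change over replicates 1 and 2 was 1.04 (SE 0.287, limma adjusted p = 0.00750), where 63.6% of all tested genes were called. The call rested on 1 control library: without WAT day 8 control replicate 2 the log2 change was 0.47 with a limma adjusted p of 0.0703.

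In BAT day 8 control, H2-Ab1 stood at 7.95, 5.94 and 8.79 FPKM, and in BAT day 8 EGCG at 3.53, 3.26 and 4.98 FPKM. Here the EGCG libraries were the lower ones, with no overlap. The log2 change was -0.84 (SE 0.287, limma adjusted p = 0.0193), and 72.6% of all tested genes were called. This call was lost without BAT day 8 control replicate 1 (log2 change -0.66, limma adjusted p = 0.125), without BAT day 8 EGCG replicate 1 (-0.89, 0.0531) or replicate 2 (-0.80, 0.0768), and with no filter on low values (adjusted p = 0.0516).

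The changes of H2-Ab1 with EGCG on day 8 thus had opposite signs in the depots. The difference itself, BAT minus WAT, was -1.88 (SE 0.406, limma adjusted p = 0.00345), and it was called under every alternative tried. In this comparison 39.2% of all tested genes were called, and 2 of the 4 tested members were: H2-Ab1 and H2-Eb1. H2-Eb1 entered the tests only through groups of this comparison.

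With time, H2-Ab1 rose in BAT control cells, from 0.608 ± 0.308 FPKM on day 4 to 6.95 ± 1.42 on day 8 (SD, n = 2). The log2 change was 2.31 (SE 0.287, limma adjusted p = 1.87e-05), and in this comparison 69.2% of all tested genes were called. In BAT EGCG cells the means were 3.24 ± 0.367 on day 4 and 3.39 ± 0.186 on day 8. Their log2 difference was 0.05 (95% interval -0.58 to 0.68, limma adjusted p = 0.889), where 58% of all tested genes were called. In WAT control the medians of 3 libraries were 0.290 on day 4 and 4.63 on day 8, and in WAT EGCG they were 20.9 and 10.96. The ranges of the days did not overlap, but how many other genes separate in this way was not counted. These WAT comparisons include the day 4 libraries that chose the gene, so they are descriptions and were not tested.

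Between the depots on day 8, no difference of H2-Ab1 was called in control cells over replicates 1 and 2. BAT minus WAT was 0.39 (95% interval -0.24 to 1.01, limma adjusted p = 0.285), where 53.6% of all tested genes were called. The sign depended on the WAT controls: it was -0.18 without WAT day 8 control replicate 2, and 0.95 (limma adjusted p = 0.00314) without replicate 1. In replicate 3, control cells held 8.79 FPKM in BAT and 4.63 in WAT. In the fit of both tables with median-ratio scaling and the replicate block, H2-Ab1 was called between the depots in control cells. The control result thus depended on the fit. With EGCG, BAT was lower by a log2 difference of -1.497 (SE 0.287, limma adjusted p = 0.00172), where 38.4% of all tested genes were called. Replicate 3, 4.98 FPKM in BAT and 5.01 in WAT as deposited, again contains the library that stood apart.

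Ordered by the median of 3 libraries, H2-Ab1 was highest in WAT day 4 EGCG, followed by WAT day 8 EGCG, BAT day 8 control, WAT day 8 control, BAT day 8 EGCG, BAT day 4 EGCG, BAT day 4 control and WAT day 4 control. The WAT day 4 groups chose the gene, so their places at the top and the bottom are not a separate result. Ranges separated the first group from the second and the sixth from the seventh. The other neighbours overlapped, WAT day 8 EGCG with BAT day 8 control only through the deposited 5.01 FPKM of the library that stood apart.

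**Figure D2:**
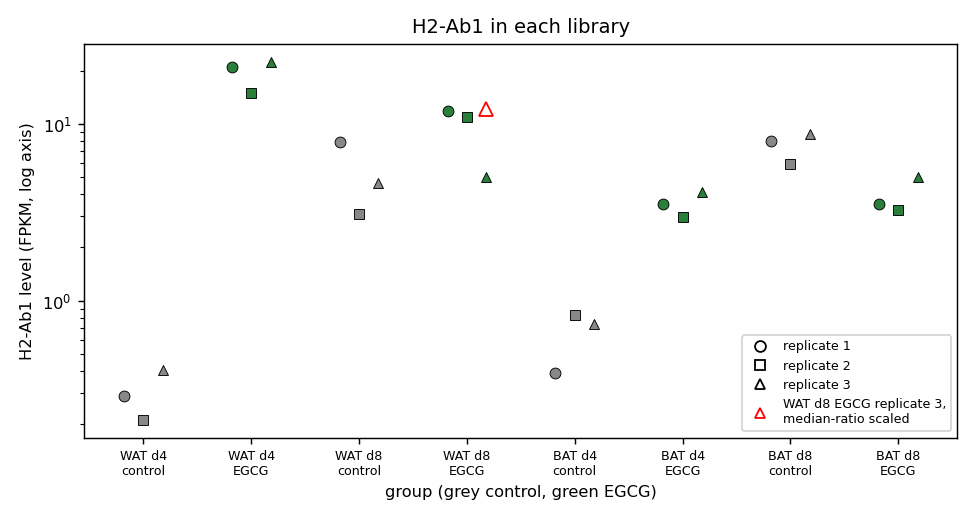
H2-Ab1 in each library, in FPKM on a log axis, by group (grey control, green EGCG), with the replicate as the marker and the open red triangle for the third WAT day 8 EGCG library after median-ratio scaling (12.1 FPKM). The EGCG libraries lie above the controls on day 4 in both depots and below them in BAT on day 8.

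H2-Aa, the α chain that pairs with H2-Ab1, did not follow it. In the 3 libraries of WAT day 4 EGCG, where H2-Ab1 held 2598 reads, H2-Aa held 0. Its 8 reads fell in BAT only: 1 in BAT day 4 control, 3 in BAT day 8 control and 4 in 1 library of BAT day 8 EGCG. It was below the filter and was not tested.

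H2-Eb1, the β chain of I-E, was low, between 0.0594 and 1.33 FPKM. In replicates 1 and 2 it reached 1 FPKM only on day 8 and never in WAT control. It thus entered the tests through the groups where it was high, which limits its tests between days, depots and treatments. In WAT day 8 control the libraries held 0.205, 0.465 and 0.615 FPKM, and in WAT day 8 EGCG 0.865, 1.09 and 0.326 FPKM (0.789 for the third after median-ratio scaling). Replicates 1 and 2 were higher with EGCG and the deposited replicate 3 was lower. The log2 change was 0.57 (SE 0.122, limma adjusted p = 0.00150). In a fit of both tables with median-ratio scaling and the replicate number as a block, which changes 3 choices together, it was 0.35 with an adjusted p of 0.0627, and 0.35 with 0.125 without the library that stood apart.

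In BAT, H2-Eb1 was 0.528, 0.510 and 0.354 FPKM in day 4 control and 0.542, 0.430 and 0.374 in day 4 EGCG, which overlap (log2 change -0.03, limma adjusted p = 0.854). On day 8 it was 1.26, 1.33 and 0.288 FPKM in control and 0.906, 1.17 and 1.08 with EGCG (log2 change -0.17, limma adjusted p = 0.219). The third control library, with 6 reads, was far below the other 2. From day 4 to day 8 H2-Eb1 rose in BAT control (log2 change 0.60, limma adjusted p = 0.000957) and in BAT EGCG (0.45, 0.00723), though the third library of BAT control went the other way. In BAT EGCG the rise was lost without day 4 replicate 2 (adjusted p = 0.0519) or day 8 replicate 2 (0.0687). BAT control was above WAT control on day 8 (0.79, limma adjusted p = 0.000201), again with replicate 3 the other way.

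The effect of EGCG on H2-Eb1 on day 8 differed between depots by -0.74 (SE 0.173, limma adjusted p = 0.00526), BAT minus WAT. The filter was passed only through groups of this comparison, which limits the test. In the fit of both tables with median-ratio scaling and the block the difference was -0.34 (adjusted p = 0.246).

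Cd74, the invariant chain, was near 0. It reached 0.656 FPKM at most, in WAT day 8 control replicate 1 (46 reads), and 15 of 24 libraries held 3 reads or fewer. In WAT day 4 it held 9, 16 and 12 reads in control and 6, 5 and 3 with EGCG, while H2-Ab1 was 71.5 times higher with EGCG. In WAT day 8 it held 46, 23 and 2 reads in control and 1, 3 and 0 with EGCG. In BAT day 8 control it held 1, 15 and 11 reads. Libraries of 1 group thus differed widely. Cd74 exceeded H2-Ab1 in FPKM in 2 of the 24 libraries.

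Ciita, the transactivator, reached 0.238 FPKM at most. The main gene model (ENSMUSG00000022504.8, chromosome 16, 10480237 to 10527657) held 0 to 62 reads a library, and a second, short model with the same symbol held 14 in all. In WAT day 4 Ciita stood at 0.136, 0.212 and 0.0692 FPKM in control and 0.116, 0.211 and 0.0564 with EGCG, which overlap. Cd74 and Ciita did not reach the filter and were not tested.

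H2-DMa, the α chain of H2-M, was above 1 FPKM in all 24 libraries (1.22 to 5.76), the only member of which this was true. Its main contrast was between days. In BAT control it stood at 4.51, 4.83 and 4.63 FPKM on day 4 and 1.47, 1.73 and 1.27 on day 8, with no overlap. It fell by 1.13 on the log2 scale (SE 0.102, limma adjusted p = 1.23e-06), while H2-Ab1 rose over the same days. H2-Eb1 and H2-DMb1 rose too, but they entered the tests only through day 8 libraries, so their rise is no separate contrast. With EGCG the BAT libraries held 4.51, 4.86 and 4.57 FPKM of H2-DMa on day 4 and 2.50, 2.36 and 2.68 on day 8. The log2 change was -0.73 (limma adjusted p = 7.62e-05).

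EGCG raised H2-DMa on day 8 in both depots. In BAT every EGCG library lay above every control library, with a log2 change of 0.40 (SE 0.102, limma adjusted p = 0.00366). In WAT the libraries held 2.16, 1.83 and 1.71 FPKM in control and 3.33, 2.60 and 1.22 with EGCG (2.95 for the third after median-ratio scaling). The log2 change was 0.40 (SE 0.102, limma adjusted p = 0.00464), and without WAT day 8 EGCG replicate 1 it was 0.27 with an adjusted p of 0.0606. On this scale the median of all tested genes was 0.17 in WAT and 0.17 in BAT, and 0.01 and 0.02 under median-ratio scaling, under which the H2-DMa calls held. In BAT day 4 the log2 change was 0.00 (95% interval -0.22 to 0.23, limma adjusted p = 0.977). In WAT day 4, described only, the libraries held 3.63, 3.49 and 3.92 FPKM in control and 5.31, 4.52 and 5.76 with EGCG.

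H2-DMb1, the β chain of H2-M, did not follow its partner. It was below H2-DMa in 21 of 24 libraries. In replicates 1 and 2 it reached 1 FPKM only in WAT day 8 and in BAT day 8 EGCG replicate 1. It thus entered the tests through the groups where it was high, which limits its tests between days and depots. In BAT control it stood at 0.338, 0.446 and 0.511 FPKM on day 4 and 0.924, 0.962 and 1.38 on day 8, and rose with a log2 change of 0.48 (SE 0.107, limma adjusted p = 0.00166). WAT day 8 control was higher, at 1.94, 1.93 and 1.86 FPKM, and BAT minus WAT was -0.60 (limma adjusted p = 0.000584). With EGCG the day 8 libraries held 1.09, 0.866 and 0.912 FPKM in BAT and 1.75, 2.39 and 0.670 in WAT (1.62 for the third after median-ratio scaling). BAT minus WAT was -0.63 (limma adjusted p = 0.000758), with the deposited replicate 3 the other way.

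With EGCG, H2-DMb1 was higher in BAT day 4 (0.685, 0.740 and 0.986 FPKM) than in its control, with a log2 change of 0.30 (SE 0.107, limma adjusted p = 0.0359). This call was lost without any 1 of the 4 libraries (adjusted p 0.0558 to 0.170) and under median-ratio scaling, quantile normalization and voom weights (0.0526 to 0.0836). On day 8 the log2 change was 0.06 in WAT (95% interval -0.18 to 0.29, limma adjusted p = 0.670) and 0.02 in BAT (-0.21 to 0.26, 0.864). In WAT day 4, described only, it was 0.195, 0.234 and 0.524 FPKM in control and 0.682, 0.691 and 0.916 with EGCG.

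**Figure D3:**
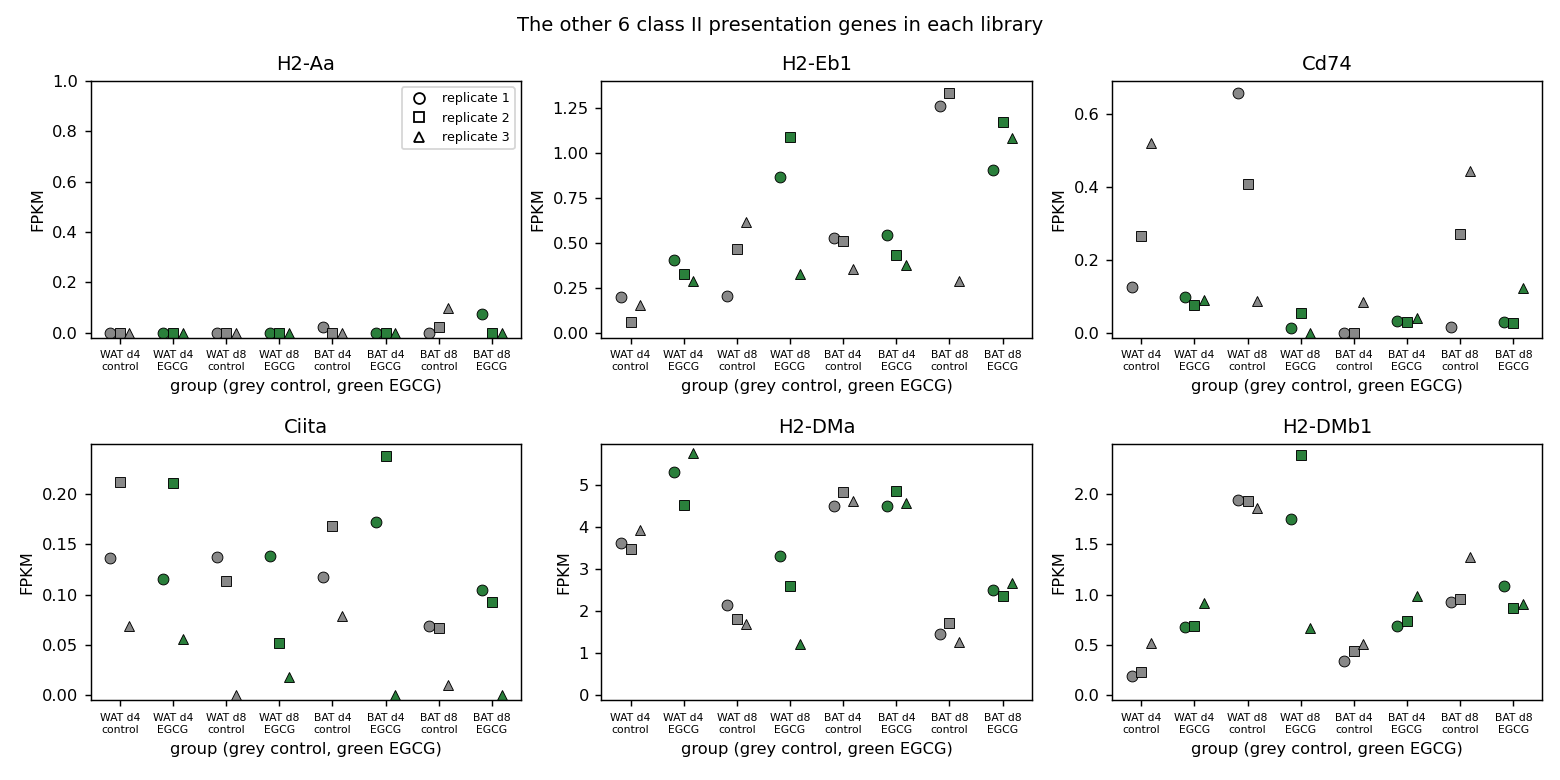
The other 6 genes in each library, in FPKM on linear axes that differ between panels, by group (grey control, green EGCG), with the replicate as the marker. H2-Aa lies at or near 0 throughout, H2-DMa is lower on day 8 than on day 4, and H2-DMb1 has its highest medians in WAT on day 8.

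Counted over the 4 members that passed the filter, 3 rose with EGCG in WAT day 8, 2 rose in BAT day 4, and in BAT day 8 H2-DMa rose and H2-Ab1 fell. All 4 changed between days in BAT control, where H2-Eb1 and H2-DMb1 had entered the tests only through day 8 libraries. With 4 genes, and with 48.5% to 72.6% of all tested genes called in the same comparisons, the counts say nothing particular to the members.

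**Figure D4:**
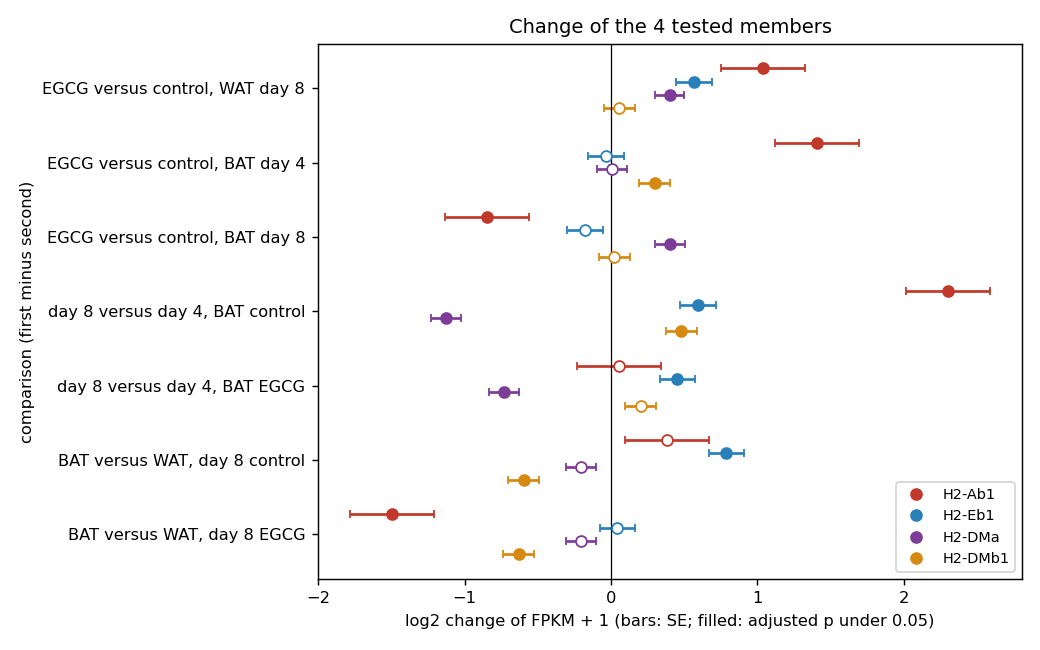
Log2 changes of FPKM + 1 with their SE for the 4 tested members in 7 comparisons, where filled points have an adjusted p under 0.05. H2-Ab1 is 1.41 with EGCG in BAT day 4 and -0.84 in BAT day 8, and H2-DMa is -1.13 from day 4 to day 8 in BAT control.

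Other genes of the pathway were taken from fixed lists. Of the other class II genes, H2-Ea-ps and H2-Eb2 held 0 reads over all libraries, H2-Oa 2 and H2-Ob 7. The proteases that cut antigen and the invariant chain were well expressed, with Ctsl at 228 to 879 FPKM and Ctss at 2.17 to 13.3. Of 7 tested genes of class II loading, 6 rose and 1 fell with EGCG in WAT day 8, 4 rose in BAT day 4, and 3 rose and 1 fell in BAT day 8. Their median log2 changes were 0.26, 0.28 and -0.01, beside 0.17, 0.03 and 0.17 over all tested genes. The share of all tested genes called in these comparisons, in either direction, was 63.6%, 48.5% and 72.6%. Ctss, the protease that trims the invariant chain, went both ways, from 4.43 to 12.6 FPKM in BAT day 4 (log2 change 1.32, limma adjusted p = 9.80e-07) and from 11.9 to 7.08 in WAT day 8 (-0.67, 0.000136). Ifi30, a reductase that opens disulfide bonds of antigens, rose in BAT day 4 (1.67), BAT day 8 (1.97) and WAT day 8 (0.76). It was also higher on day 8 than on day 4 in BAT EGCG (1.05) and lower in BAT than in WAT in day 8 control (-1.06).

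The factors that bind the X and Y boxes were present. Rfx5, Rfxap and Rfxank ranged from 1.08 to 7.97 FPKM over all libraries, and Nfya, Nfyb and Nfyc from 2.44 to 18.7. Ifng, which induces Ciita, held 6 reads in all. Of 15 tested genes of the transcription factor and interferon gamma list, 5 rose and 5 fell with EGCG in WAT day 8, 4 rose and 3 fell in BAT day 4, and 7 rose and 6 fell in BAT day 8. Their median log2 changes were 0.02, 0.08 and -0.06, beside 0.17, 0.03 and 0.17 over all tested genes. The share of all tested genes called was 63.6%, 48.5% and 72.6%, so these counts say nothing particular to the list. Ifngr1, a receptor chain, fell from 130 to 30.5 FPKM in BAT day 8 (log2 change -2.06, limma adjusted p = 1.57e-08). Its mean was also lower with EGCG in WAT day 8 (111 to 41.8 FPKM) and BAT day 4 (63.3 to 42.0). The same held in WAT day 4 (68.05 to 45.2), described only. In EGCG cells on day 8, Nfya was higher in BAT than in WAT (0.28).

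Class I molecules, which display peptides of the cell's own proteins, were mostly lower with EGCG in WAT day 8, where H2-Ab1 was higher. Of 18 tested class I genes, 14 fell and 3 rose with EGCG, with a median log2 change of -0.99. Over all tested genes 6302 rose and 2660 fell in this comparison, with a median of 0.17. H2-K1 fell from 434 to 93.9 FPKM (log2 change -2.20, limma adjusted p = 1.55e-11) and H2-D1 from 444 to 104 (-2.09, 2.88e-10), both classical heavy chains. H2-Q4 (-2.32), H2-Q7 (-2.04) and H2-T23 (-1.92), further heavy chains, fell as well. In BAT day 8, 11 fell and 4 rose (median -0.52, beside 3682 falls, 6549 rises and a median of 0.17 over all tested genes), and H2-K1 fell from 376 to 62.4 FPKM (-2.57, 4.36e-12). In BAT day 4, 7 fell and 4 rose (median -0.05, beside 2900 falls, 3938 rises and 0.03), and Tapbp, which bridges class I to the peptide transporter, fell from 43.1 to 17.96 FPKM (-1.22, 1.09e-08). From day 4 to day 8 in BAT control, 13 rose and 3 fell (median 0.77, beside 4050 rises, 5701 falls and -0.0996), where H2-Ab1 rose too, with H2-K1 from 94.8 to 376 FPKM (1.98), H2-D1 (1.94), H2-T23 (1.91), H2-Q4 (1.86) and B2m, the class I light chain, from 253 to 686 (1.43). In BAT EGCG, 12 rose and none fell (median 0.34, beside 4191 rises, 3980 falls and 0.0009 over all tested genes), with B2m (1.28) and the immunoproteasome subunit Psmb10 (0.93) among them. Between depots in day 8 control, 11 were lower in BAT and none was higher (median -0.28, beside 3095 lower, 4460 higher and 0.05 over all tested genes), among them H2-Q4 (-1.76), H2-Q7 (-1.62) and H2-T23 (-1.55). With EGCG 7 were lower and 2 higher (median -0.04, beside 1972 lower, 3441 higher and 0.05), the 2 being Tap1 (0.33) and B2m (0.22); the B2m call was lost in 4 alternatives (limma adjusted p 0.0505 to 0.0911). H2 heavy chain genes resemble each other, and reads may be split between them. Genes were named here where replicate 3 had the same direction, which in WAT day 8 favours falls, because of the library that stood apart.

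Of 4 tested costimulation genes, 2 rose and 2 fell with EGCG in WAT day 8, 3 rose and 1 fell in BAT day 4, and 2 rose and 1 fell in BAT day 8. Their median log2 changes were 0.57, 1.13 and 0.91, beside 0.17, 0.03 and 0.17 over all tested genes. As 63.6%, 48.5% and 72.6% of all tested genes were called, counts over 4 genes say nothing particular to this list. Cd80, a ligand that activates T cells, rose with EGCG in all 3 comparisons: from 2.58 to 15.0 FPKM in BAT day 4 (log2 change 2.16, limma adjusted p = 5.73e-07), from 1.53 to 33.9 in BAT day 8 (3.79, 1.26e-09) and from 9.24 to 33.1 in WAT day 8 (1.76, 1.71e-06). Icam1, an adhesion molecule, rose in all 3 as well (1.85, 1.94 and 1.55). In WAT day 8 the falls were those of Icosl, the ligand of ICOS (3.03 to 1.61 FPKM, log2 change -0.62), and Cd274, an inhibitory ligand (2.08 to 1.32 FPKM, -0.41). Cd274 was the gene that fell in BAT day 4 (1.89 to 0.904 FPKM, -0.60), where Icosl rose (0.41), and Icosl the one that fell in BAT day 8 (2.05 to 0.590 FPKM, -0.94). In BAT EGCG, Cd80 rose from day 4 to day 8 (1.13). Between the depots in day 8 control, Cd80 was lower in BAT (-1.998, limma adjusted p = 1.04e-06). Cd86, the other CD28 ligand, held 134 reads over all libraries and was not tested.

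The markers of the cells that commonly express class II were also read. In the stromal vascular fraction, fewer cells of a type and less RNA per cell cannot be told apart. The summed FPKM of 14 macrophage markers was 98.8 to 106 in WAT day 4 control and 219 to 237 with EGCG, and 215 to 241 and 453 to 541 in BAT day 4. On day 8 it was 169 to 218 in WAT control and 70.2 to 73.6 in replicates 1 and 2 with EGCG (30.8 in the third as deposited and 74.6 after scaling), and 163 to 177 and 75.2 to 75.9 in BAT. Between EGCG and control within a depot, the macrophage sum was thus higher where H2-Ab1 was higher on day 4 and in BAT day 8. It was lower where H2-Ab1 was higher in WAT day 8. Between the depots in day 4 EGCG, the sum was higher in BAT, where the H2-Ab1 median was lower (3.50 FPKM, beside 20.9 in WAT). In day 4 control the sum and the H2-Ab1 median were higher in BAT. In WAT day 8 all 13 tested macrophage markers fell, in BAT day 4, 9 of 13 rose, and in BAT day 8, 11 fell. Of all tested genes 63.6%, 48.5% and 72.6% were called in these comparisons in either direction. The part of macrophages in the result was not tested.

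Of 8 dendritic cell markers, Zbtb46, a transcription factor, was measured in every library (0.556 to 5.31 FPKM) and Batf3 reached 1.35 FPKM, while Cd209a held 0 reads and Flt3 14 over all 24 libraries. The sum of the 8 was 0.811 to 5.86 FPKM, the lowest value being that of the library that stood apart (1.96 after scaling). It was 5.37 to 5.86 in WAT day 4 control and 2.89 to 3.715 with EGCG, and 2.51 to 2.89 and 2.18 to 2.705 in BAT day 4. On day 8 it was 3.29 to 4.765 in WAT control and 1.81 to 1.85 in replicates 1 and 2 with EGCG. In BAT day 8 it was 2.70 to 3.43 and 1.76 to 1.79. Only Zbtb46 and Batf3 reached the filter, and with EGCG in WAT day 8 they fell (-0.68 and -0.67). Among the untested markers, all low, mean Clec9a went from 0.0637 to 0.116 FPKM, Itgax from 0.0688 to 0.0812 and Xcr1 from 0.0129 to 0.0156. Ccr7 went from 0.0303 to 0. The part of dendritic cells in the result was not tested. B and T cell markers were at or near 0. Of 7 B cell markers, Ms4a1 held 1 read and Pax5 2, and the sum was at most 0.572. Of 6 T cell markers, Cd3g held 0 reads, and the sum was at most 0.368. The 8 endothelial markers summed to 21.6 to 23.5 FPKM in WAT day 4 control and 49.0 to 52.2 with EGCG, and to 14.1 to 17.3 and 44.3 to 50.9 in BAT day 4. On day 8 they were 27.7 to 30.2 in WAT control and 35.3 to 36.3 in replicates 1 and 2 with EGCG (14.9 in the third as deposited and 36.0 after scaling), and 21.4 to 23.2 and 38.1 to 40.1 in BAT. Their part in the result was not tested. The 4 mesothelial markers summed to at most 5.31 FPKM.

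**Figure D5:**
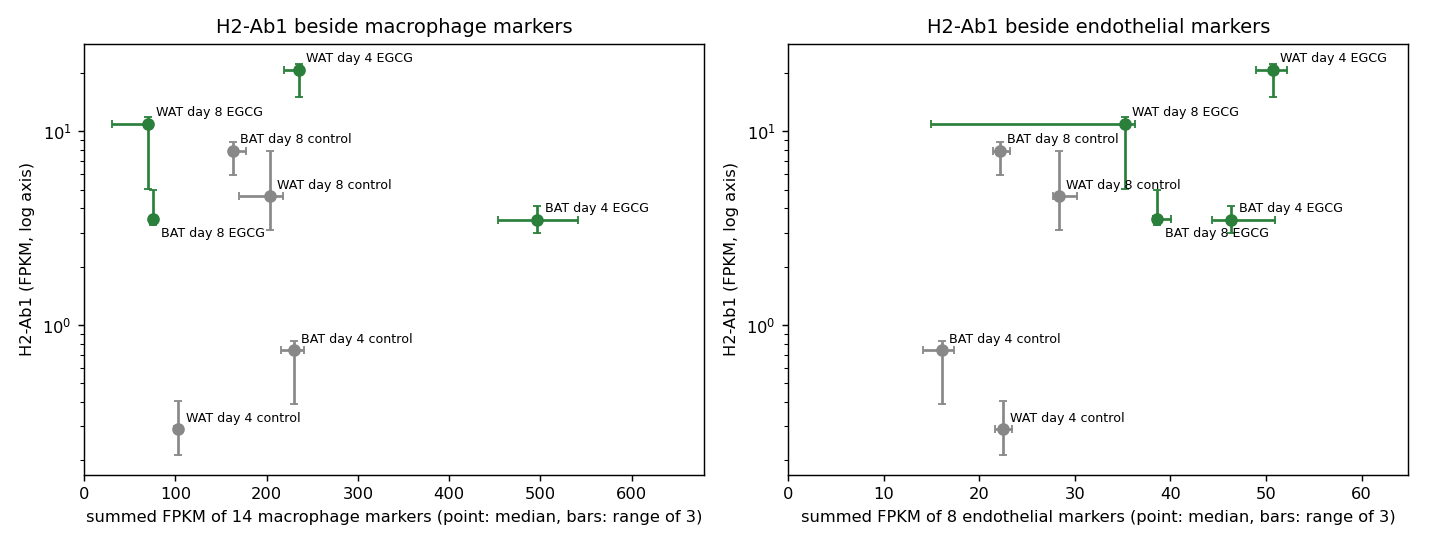
H2-Ab1 in FPKM (log axis) against the summed FPKM of 14 macrophage and 8 endothelial markers, with a point at the median of the 3 libraries of each group and bars for their range (grey control, green EGCG). WAT day 8 EGCG has the lowest macrophage sum by median (70.2) and the second highest H2-Ab1, and its long bars end at the deposited value of the library that stood apart.

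The 5 genes whose values were most like those of H2-Ab1 over the 16 libraries of replicates 1 and 2 were 4930583H14Rik (Pearson r = 0.951), Fam168a (0.934), Fndc3a (0.929), Gm17146 (0.923) and Atxn7l1 (0.922). The libraries share their group, so these are descriptions. Over the 8 libraries of replicate 3, which took no part in the choice, r was 0.962, 0.305, 0.629, 0.452 and 0.759. These values are as deposited, with the library that stood apart included and not scaled. A lower r can thus come from that library and cannot be read as a failure to repeat. Only 4930583H14Rik held a similar r in these values. It lies on chromosome 3, and its mean FPKM was 0.960 in WAT day 4 control and 25.3 in WAT day 4 EGCG, 7.37 and 14.2 in WAT day 8, 1.59 and 6.78 in BAT day 4, and 6.49 and 3.28 in BAT day 8. Among the members, r with H2-Ab1 was 0.622 for H2-DMb1, 0.359 for H2-Eb1 and -0.161 for H2-DMa. They ranked 592, 2763 and 9380 among the tested genes.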

How the data were processed

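RNA was sequenced from 24 libraries in 8 groups. The authors deposited FPKM in 2 tables, with replicates 1 and 2 in the first and replicate 3 in the second, scaled separately, and gene lengths in the first. The submitters' processing notes name FastQC 0.11.9, HISAT2 2.2.0, HTSeq 0.11 and build mm9. The annotation and strand use are not given in the sources used here. All 37310 identifiers and lengths matched GENCODE vM1. All values above 0 were whole reads at a tolerance of 0.01, so reads were recovered from FPKM and length.

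Groups came from the labels. Log2(FPKM + 1) of 16 libraries entered limma 3.58.1 (eBayes with trend, R 4.3.3) with a mean for each group, leaving 8 residual degrees of freedom, or 11.4 after moderation. Two-sided tests were adjusted by Benjamini-Hochberg within each of 8 comparisons at a threshold of 0.05. This scale understates the change of low genes. Intervals on reads and the floor of 3 reads cover counting error only, since reads are not independent molecules. The procedure was tested on simulated data with a single fixed spread and with changes only in well-covered genes. That trial does not cover members with few reads. Python 3.11.15 was used for tables and figures.

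All 7 members are named. Pathway genes are named by rule where they were called, reached a mean of 5 FPKM in the higher group and had the same direction in replicates 1, 2 and 3, at most 5 per comparison by log2 change. Ctss, Ifi30, Cd80 and Icam1 in WAT day 8, Icosl, Cd274, Zbtb46, Batf3, H2-Oa and other genes given as levels were added after their values were seen. Some items of the lists are not reported here. The members and lists were chosen with earlier results of these data known. H2-Ea was unmatched, and Adgre1 was matched as Emr1. Alternatives were a pseudocount of 0.1, no filter, median-ratio and quantile scaling, recovered reads with voom weights and the replicate block. Further alternatives joined both tables with median-ratio scaling and the block, or left out in turn each library of the groups compared. Both tables without the third WAT day 8 EGCG library was added after seeing the data.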

Additional observations from a re-analysis of the deposited data

Results flagged for a closer look

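The effect of EGCG on day 8 differed between the depots for 2 members, by a test of the difference itself. For H2-Ab1 the log2 effect in BAT minus that in WAT was -1.88 (limma adjusted p = 0.00345), with a fall in BAT and a rise in WAT. For H2-Eb1 it was -0.74 (limma adjusted p = 0.00526), with a rise in WAT and -0.17 in BAT, which did not pass the test. H2-Eb1 entered the tests only through day 8 groups of this same comparison, which limits its result. The third BAT day 8 control library (0.288 FPKM, 6 reads) was far below replicates 1 and 2. With both tables, median-ratio scaling and the replicate block, the H2-Eb1 difference was -0.34 (adjusted p = 0.246) and its change in WAT 0.35 (0.0627), so neither was called.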

How the results depend on the processing

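H2-Ab1 kept its call under every alternative in BAT day 4 EGCG, in BAT control between days, between depots with EGCG, and in the depot difference. The number of members called in BAT day 4 EGCG went from 2 to 1 under median-ratio scaling, quantile normalization and voom weights, and in BAT day 8 EGCG from 2 to 1 with no filter. In the fit of both tables, which also changes to median-ratio scaling and adds the replicate block, it went, with or without the library that stood apart, from 2 to 4 between depots in day 8 control and from 2 to 1 in the depot difference. Leaving out 1 library gave 2 to 3 members in WAT day 8 EGCG, 1 to 1 in BAT day 4 EGCG, 1 to 2 in BAT day 8 EGCG, 4 to 4 between days in BAT control, 1 to 2 in BAT EGCG, 2 to 3 between depots in control and 2 to 3 with EGCG, and 2 to 2 in the depot difference. The WAT day 4 log2 difference of H2-Ab1, 3.90 as described, was 5.67 with a pseudocount of 0.1 and 6.09 with voom; the pseudocount of 1 holds down the change of a gene whose control lies below 1 FPKM. Replicate numbers did not pair the libraries (correlations of replicate differences -0.0229 to 0.0102), and the replicate block changed no call (H2-Ab1 in BAT day 4: 1.41, adjusted p = 0.00102).

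Signs turned only in values that had not passed the test. H2-DMb1 in WAT day 8 became -0.0783 under median-ratio scaling, -0.128 with both tables and -0.0284 without the library that stood apart; in BAT day 8 it became -0.0719, -0.190 and -0.192. H2-DMa in BAT day 4 became -0.0310, -0.0569 and -0.0572 in the same order, and -0.0519 under quantile normalization. H2-Eb1 in BAT day 8 became 0.0173 and 0.0205 in the fits of both tables. In the depot difference H2-DMa became -0.0324 under quantile normalization and H2-DMb1 0.0064 under median-ratio scaling. Leaving out 1 library gave ranges across 0 for H2-DMb1 in WAT day 8 (-0.0949 to 0.207) and BAT day 8 (-0.0578 to 0.102), for H2-Eb1 (-0.0863 to 0.0217) and H2-DMa (-0.0402 to 0.0492) in BAT day 4, for H2-Ab1 between days in BAT EGCG (-0.0346 to 0.142) and between depots in control (-0.178 to 0.948), for H2-Eb1 between depots with EGCG (-0.0493 to 0.139), and for H2-DMa (-0.131 to 0.135) and H2-DMb1 (-0.185 to 0.117) in the depot difference. The cause was not tested. H2-Aa, Cd74 and Ciita held at most 62 reads a library.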
